A study of Rattus norvegicus with 10 samples.

Results

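Kupffer cells are the resident macrophages of the liver, and 10 genes commonly used to mark them and other macrophages are described here in livers of rats that ate a high-fat diet. A probe set was taken where the platform annotation gave it exactly 1 gene symbol and that symbol was 1 of the 10. The rule found 10 probe sets for 9 genes, of 31042 probe sets other than controls on the array. Cd14, Cd68, Cd163, Csf1r, Lyz2, C1qa, C1qb and C1qc had 1 probe set each and Aif1 had 2. Marco, a scavenger receptor of macrophages, was matched by none, so no intensity is given for it and only its promoter is counted.

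The rats were of the Wistar/ST stock, and all of them were fed the high-fat diet. A gastric probe delivered mulberry leaf powder to the 5 mulberry rats at a daily dose of 500 mg per kg, in 0.5% carboxymethylcellulose as the vehicle. The 5 control rats received the same vehicle with 0 mg per kg, and treatment lasted 7 weeks. The age and sex of the rats are not given in the sources used here. Each rat gave 1 array, on which a piece of whole liver was measured, so that fewer macrophages and less RNA per macrophage cannot be told apart. The comparison asks which liver genes respond to mulberry leaf when the diet is rich in fat.

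Kupffer cells line the sinusoids, where they take up particles, bacteria and worn red blood cells from portal blood. They depend on signalling through the receptor for colony-stimulating factor 1 and are a main source of complement C1q, whose A, B and C chains assemble into the molecule that starts the classical complement pathway. CD14 presents bacterial lipopolysaccharide to its receptor complex, and CD163 takes up hemoglobin bound to haptoglobin. Other liver cells can contribute as well, since hepatocytes are able to make CD14 and neutrophils carry lysozyme.

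The 3 C1q genes follow each other on rat chromosome 5 with 0 other genes starting between them in the RefSeq annotation of assembly GRCr8. The 250 bases before the RefSeq start of C1qa and C1qb, chains that varied together in these livers, and of Cd68, the marker with the second-smallest unadjusted p, are printed 5′ to 3′ in the direction of the gene. Capitals mark GAGGAA, the core of the box bound by the myeloid factor PU.1, and GGAAGT, a core bound by the wider ETS family, on either strand (TTCCTC and ACTTCC on the other). The windows are chr5:154419934-154420183, chr5:154407828-154408077 and chr10:54882442-54882691 of GRCr8, all on the minus strand.
C1qa: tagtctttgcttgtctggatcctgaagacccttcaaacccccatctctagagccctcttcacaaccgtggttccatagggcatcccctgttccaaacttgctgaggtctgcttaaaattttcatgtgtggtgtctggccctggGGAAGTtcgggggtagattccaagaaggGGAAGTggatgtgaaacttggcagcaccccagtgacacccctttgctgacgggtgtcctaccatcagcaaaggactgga
C1qb: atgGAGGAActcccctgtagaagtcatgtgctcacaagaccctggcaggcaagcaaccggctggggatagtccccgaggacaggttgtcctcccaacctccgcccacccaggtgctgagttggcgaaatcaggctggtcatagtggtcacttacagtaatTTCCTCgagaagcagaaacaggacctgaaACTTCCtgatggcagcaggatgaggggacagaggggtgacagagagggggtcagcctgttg
Cd68: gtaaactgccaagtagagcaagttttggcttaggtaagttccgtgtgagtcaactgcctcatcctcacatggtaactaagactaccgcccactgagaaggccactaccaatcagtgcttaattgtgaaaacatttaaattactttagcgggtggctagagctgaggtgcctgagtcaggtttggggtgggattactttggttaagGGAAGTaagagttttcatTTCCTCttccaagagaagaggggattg

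RefSeq promoter entries matched 8 of the 10 genes. Of these, Marco included, 6 held GAGGAA at least once in the 250 bases, against 23.3% of 33469 rat promoters, and 4 held GGAAGT, against 19.2%. C1qa held 2 matches of GGAAGT and 0 of GAGGAA, C1qb held 1 and 2, and Cd68 held 1 of each. The motifs can overlap each other. A match describes the letters in the window and is not a measured binding site.

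None of the macrophage genes passed the test between the groups. With limma on log2(intensity + 16), 0 of the 10 probe sets had an adjusted p under 0.05, against 0% of the 18625 probe sets tested. The smallest adjusted p among the 10 probe sets was 0.9999. At an unadjusted limma p under 0.05 there were 2 of the 10, Cd68 and Cd14, against 1.74% of all probe sets (1.07% higher, as Cd68 was, and 0.671% lower, as Cd14 was). The exact permutation test over the 252 ways to split the rats put 0 of the 10 under 0.05, against 2.32% of all probe sets. All 10 probe sets had overlapping groups, where 0.344% of all probe sets tested, and 0.32% of genes, did not overlap. With each gene represented by its brightest probe set, 6 of 9 genes had a higher mean with mulberry, against 51.3% of all 10328 genes tested. The median log2 difference was 0.12 over the 9 genes and 0.0035 over all genes. That count fell to 3 of 9 without mulberry rat 4.

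**Figure D1:**
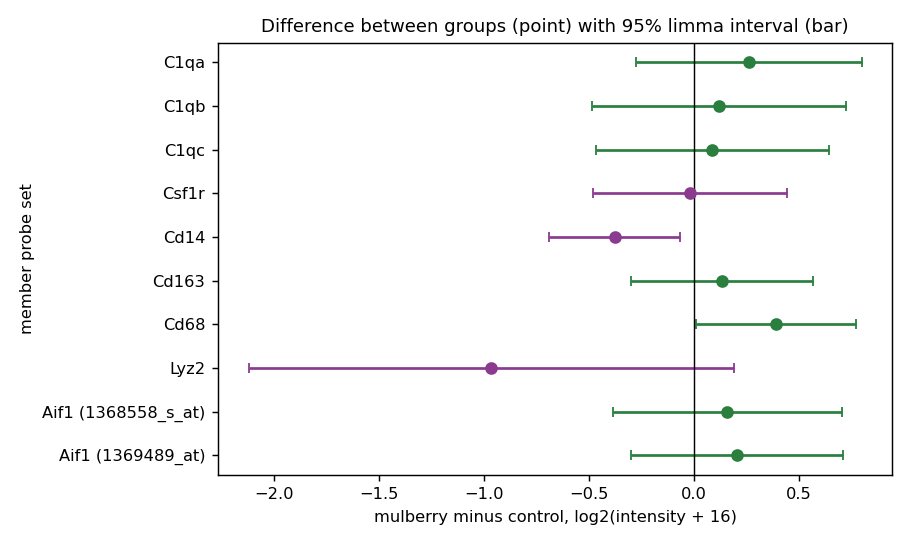
Difference between mulberry and control rats on the log2(intensity + 16) scale for the 10 macrophage probe sets, with 95% limma intervals (n = 5 per group). Only the intervals of Cd14 and Cd68 lie on 1 side of 0, and the Lyz2 interval is the widest of the 10.

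The chains of C1q were high and low in the same rats. The C1qa intensity was 2379, 2778, 5359, 2809 and 2718 in control rats 1 to 5. In mulberry rats 1 to 5 it was 3210, 4425, 2139, 4874 and 4584. Control rat 3 was the highest and mulberry rat 3 the lowest of all 10 rats, while the other mulberry rats lay above the other control rats. C1qb stood at 1226, 1408, 3025, 1893 and 1349 in the control rats and at 1811, 1871, 965, 2613 and 2367 in the mulberry rats. C1qc stood at 1063, 1095, 2397, 1308 and 1214 in the control rats and at 1489, 1551, 778, 1849.8 and 1826 in the mulberry rats. For both, control rat 3 and mulberry rat 3 were again the extremes of their groups and of all rats, and the groups overlapped.

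The log2 difference, mulberry minus control with the SE of the model, was 0.26 ± 0.25 for C1qa, with a 95% interval from -0.27 to 0.80 (exact permutation p = 0.413). It was 0.12 ± 0.28 for C1qb (interval from -0.49 to 0.73) and 0.090 ± 0.26 for C1qc (interval from -0.47 to 0.65). A log2 difference of 0.5 lies within all 3 intervals, so these data do not separate a rise of that size from 0. The sign of the C1qb and C1qc differences turned without mulberry rat 4. Ratios between the chains spread less than the chains themselves: the C1qb to C1qc log2 ratio had an SD of 0.12 within groups, against 0.54 for C1qb and 0.49 for C1qc alone. Between the groups, the C1qa to C1qc ratio differed by 0.17 (exact permutation p = 0.0794), the C1qa to C1qb ratio by 0.14 (exact permutation p = 0.254) and the C1qb to C1qc ratio by 0.030 (exact permutation p = 0.69).

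**Figure D2:**
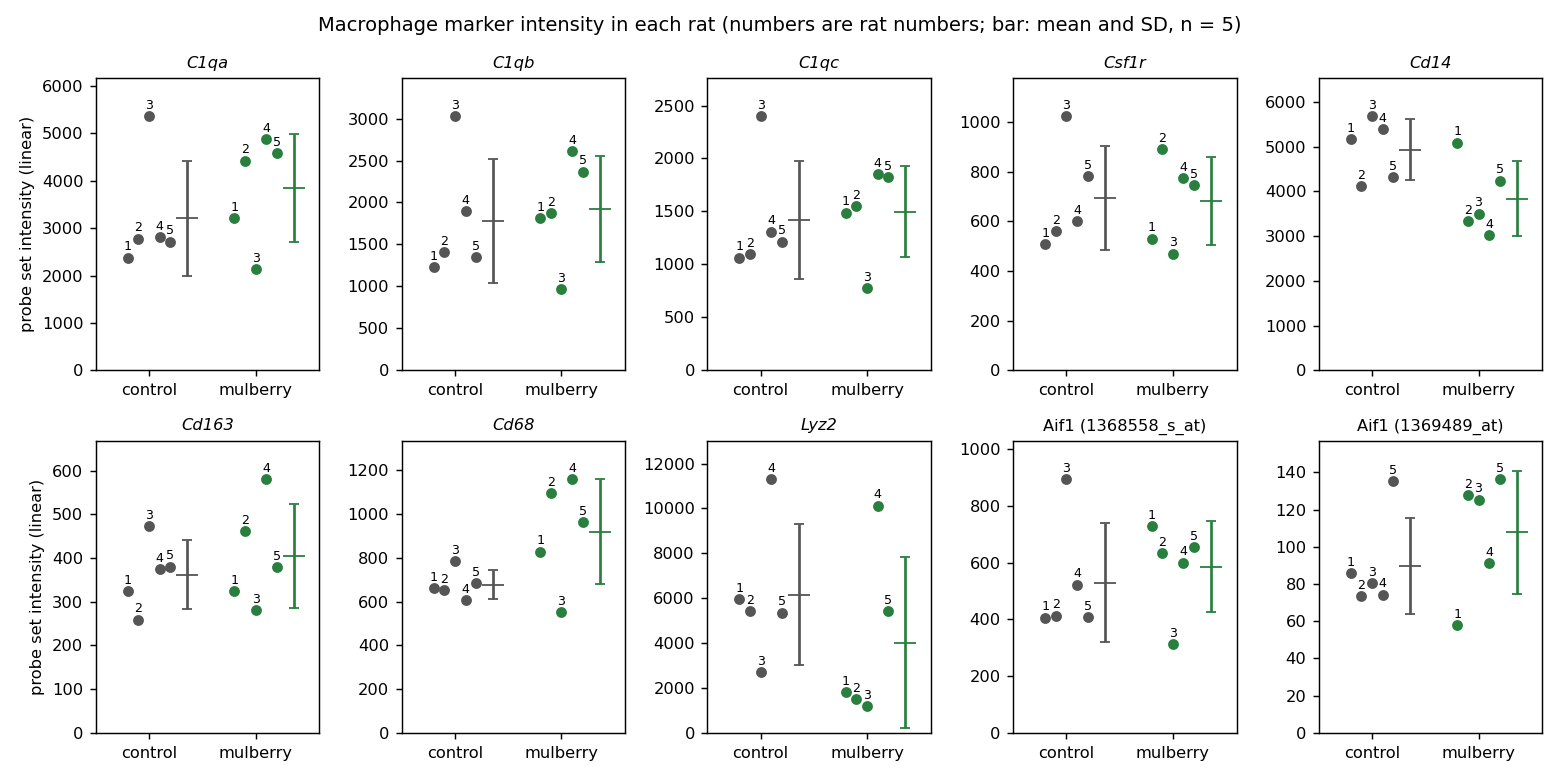
Linear intensity of each macrophage probe set in each rat (points with rat numbers), with mean and SD for the 5 control and 5 mulberry rats; each panel has its own axis from 0. Control rat 3 is highest and mulberry rat 3 lowest for C1qa, C1qb, C1qc, Csf1r and the brighter Aif1 probe set. Control rat 3 is also highest for Cd14, where mulberry rat 4 is lowest. Mulberry rat 3 is also lowest for Cd68 and Lyz2, where mulberry rat 4 and control rat 4 are highest. For Cd163 and the dim Aif1 probe set other rats are the extremes.

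Csf1r, the receptor tyrosine kinase that keeps macrophages alive, had nearly equal group means. Its intensity was 507, 561, 1023, 601 and 782 in control rats 1 to 5, and 531, 889.9, 469.8, 775 and 746 in mulberry rats 1 to 5. The highest rat was control rat 3 and the lowest mulberry rat 3, as for C1q. The log2 difference was -0.018 ± 0.21 (95% interval from -0.48 to 0.44), with a sign that turned when control rat 3, control rat 5, mulberry rat 1 or mulberry rat 3 was left out. The genes of both CSF1R ligands, Csf1 (-0.065 ± 0.14) and Il34 (-0.28 ± 0.27), had lower means with mulberry, and 0 of the 2 passed the test.

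Cd14, the lipopolysaccharide co-receptor, was lower in most mulberry rats. It was measured at 5174, 4122, 5677, 5388 and 4327 in control rats 1 to 5. In mulberry rats 1 to 5 it was measured at 5095, 3335, 3503, 3016 and 4242. Mulberry rats 2, 3 and 4 lay below every control rat, and control rats 1, 3 and 4 lay above every mulberry rat. The mean was 4937 ± 679 in the control group and 3838 ± 834 in the mulberry group (SD over 5 rats each). The log2 difference was -0.38 ± 0.14 (95% interval from -0.69 to -0.063), with an unadjusted limma p of 0.0223, an exact permutation p of 0.0556 and an adjusted limma p of 0.9999. No alternative setting turned its sign, and values ranged from -0.48 to -0.28.

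The partners of CD14 in lipopolysaccharide sensing did not pass the test, with 0 of 7 genes called. Means were higher with mulberry in 2 and lower in 5, where 51.3% of all genes were higher. Tlr4, the signalling receptor, was at -0.17 ± 0.24, and Ly96, its co-receptor, at -0.047 ± 0.16. Lbp, the plasma protein that hands lipopolysaccharide to CD14, was at 0.053 ± 0.11. The adaptor genes Myd88 and Ticam1 were at -0.024 ± 0.14 and 0.0049 ± 0.17, the kinase gene Irak1 at -0.012 ± 0.078 and the ubiquitin ligase gene Traf6 at -0.20 ± 0.14. Irak4 averaged 21.0 ± 13.4 in the control group and 21.3 ± 29.6 in the mulberry group (SD over 5 rats each), under the filter level of 61.1, and was not tested.

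Cd163, the hemoglobin scavenger receptor, overlapped widely between the groups. Control rats 1 to 5 had intensities of 324, 259, 473, 375 and 380.3, and mulberry rats 1 to 5 had 324, 462, 281, 580.5 and 379. Mulberry rat 4 was the highest and control rat 2 the lowest of all rats, where control rat 3 and mulberry rat 3 were the extremes for C1q. Within the groups, control rat 3 was the highest control rat and mulberry rats 4 and 3 the highest and lowest mulberry rats, as for C1q. The log2 difference was 0.14 ± 0.20 (95% interval from -0.30 to 0.57) and fell to -0.00015 without mulberry rat 4. Of 8 genes that handle hemoglobin, heme or the iron from it, 0 were called. With mulberry 7 had higher means, where 51.3% of all genes did, and 1 had a lower mean. Their median log2 difference was 0.070. Among them haptoglobin (Hp) was at 0.079 ± 0.099, hemopexin (Hpx) at 0.016 ± 0.060, and the heme oxygenases Hmox1 and Hmox2 at 0.062 ± 0.14 and 0.025 ± 0.092. The biliverdin reductases Blvra and Blvrb were at 0.096 ± 0.12 and 0.079 ± 0.24, the iron exporter Slc40a1 at 0.21 ± 0.13 and the hemopexin receptor Lrp1 at -0.066 ± 0.13.

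Cd68, a glycoprotein of macrophage lysosomes, was higher in most mulberry rats. Its intensity was 661, 653, 785, 608 and 684 in control rats 1 to 5, and 828, 1094, 553, 1159 and 963 in mulberry rats 1 to 5. Mulberry rats 1, 2, 4 and 5 lay above every control rat, and mulberry rat 3 lay below every control rat. The spread was larger with mulberry, with a mean of 678 ± 65.7 in the control group and 919.6 ± 241 in the mulberry group (SD over 5 rats each). The log2 difference was 0.39 ± 0.18 (95% interval from 0.0093 to 0.77), with an unadjusted limma p of 0.0454, an exact permutation p of 0.0873 and an adjusted limma p of 0.9999. Leaving out single rats gave values from 0.30 to 0.56.

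Lyz2, the lysozyme gene of myeloid cells, varied most between rats. It was measured at 5968, 5421, 2702, 11302 and 5359 in control rats 1 to 5. In mulberry rats 1 to 5 it was measured at 1813, 1523, 1211, 10124 and 5416. Mulberry rats 1, 2 and 3 lay below every control rat, whereas mulberry rat 4 was exceeded only by control rat 4. The highest rat had 9.34 times the intensity of the lowest, and the SD within groups on the log2 scale was 1.06, larger than that of 99.6% of the probe sets tested. For the other 9 macrophage probe sets that ratio was between 1.88 and 3.13. The log2 difference was -0.96 ± 0.53 (95% interval from -2.12 to 0.19), with an exact permutation p of 0.183. Leaving out single rats gave values from -1.42 without mulberry rat 4 to -0.66 without mulberry rat 3.

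Aif1, an actin-binding protein of macrophages also known as Iba1, gave different pictures on its probe sets. The brighter one, whose identifier ends in s_at to mark probes that can match more than 1 transcript, stood at 406, 414, 895, 523 and 408 in control rats 1 to 5. It stood at 729, 633, 313, 600.4 and 655 in mulberry rats 1 to 5, with control rat 3 highest and mulberry rat 3 lowest. The dim one stood at 85.8, 73.6, 80.6, 74.3 and 135 in control rats and at 57.8, 128, 125, 91.1 and 136 in mulberry rats. Their log2 differences were 0.16 ± 0.25 and 0.21 ± 0.23. As for every gene, the probe set with the highest mean, here the brighter one, stands for Aif1 in the correlations below. Over the 10 rats the log2 values of the Aif1 probe sets had a Pearson r of -0.29 with each other, and the dim one had an r of -0.088 with the mean of the C1q genes.

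Most of the markers rose and fell together from rat to rat, whichever group the rat was in. Of the 36 pairs of the 9 genes, 16 had a Pearson correlation over the 10 rats with an adjusted permutation p under 0.05 (19 unadjusted), and 14 had a Spearman correlation past it. All 16 lay among the 21 pairs that leave out Cd14 and Lyz2, where r was between 0.62 and 0.98. Those genes were set apart after the correlations were seen, because they had 0 passing pairs. The genes of a pair share the same arrays, so the pairs are not independent of each other. Passing pairs were not counted over all genes. Between 0.194% (for Lyz2) and 2.54% (for C1qb) of 10319 other genes had an r above 0.8 with a marker. That share rests on a threshold of r, so it is not a base rate for the 16 passing pairs. With each group centred on its own mean, r over these 21 pairs was between 0.60 and 0.98, and 18 of the 36 pairs passed. Centred values were shuffled over all 10 rats without regard to group, which tends to give too small a p. The 18 are therefore not like for like with the 16. The gene on the x axis of a pair was the one that came first in the order Cd68, Cd14, Cd163, Lyz2, Csf1r, C1qa, C1qb, C1qc and Aif1. Leaving out for each pair the 2 rats farthest from the median of that gene, 4 of the 36 pairs passed. Over the 21 pairs r was between 0.28 and 0.96. Of the 16 pairs, r was then higher in 5 and lower in 11, with 0.47 as the lowest, and the p came from 8 rats in place of 10. Mulberry rat 3 weighed most among single rats, since 5 pairs passed without it.

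C1qa and C1qb had a Pearson r of 0.93 and a Spearman rho of 0.96 over the 10 rats (permutation p = 8e-05 for each, adjusted p = 0.00096 and 0.00144). C1qa and C1qc had an r of 0.95 and a rho of 0.99 (permutation p = 1e-05, the smallest 100000 permutations can give, and 2e-05; adjusted p = 0.00036 and 0.00072). C1qb and C1qc had an r of 0.98 and a rho of 0.95 (permutation p = 5e-05 and 0.00014, adjusted p = 0.0009 and 0.00168). Without the 2 farthest rats these were 0.88, 0.92 and 0.95, and with Cd163 and Csf1r they were the 4 pairs that still passed. Cd163 and Csf1r had an r of 0.80 and a rho of 0.85 (permutation p = 0.0057 and 0.0028, adjusted p = 0.0187 and 0.0168). Their r was 0.96 without control rat 2 and mulberry rat 4, the farthest on Cd163. It was 0.74 without control rat 3 and mulberry rat 3, the farthest on Csf1r, so it depended on which gene was on the x axis.

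The brighter Aif1 probe set followed the C1q genes with r between 0.86 and 0.94 (3 of the 16 pairs), which the dim one did not. Csf1r followed them with r between 0.75 and 0.84. For Csf1r these fell to between 0.48 and 0.71 without control rat 3 and mulberry rat 3. Cd163 had an r of 0.80 with C1qa and 0.77 with both C1qb and C1qc (adjusted permutation p = 0.0179, 0.0266 and 0.0266). Without control rat 3 and mulberry rat 3 these were 0.73, 0.69 and 0.73. Cd68 had an r of 0.84 with C1qa and a rho of 0.76 (permutation p = 0.00399 and 0.0149, adjusted p = 0.0179 and 0.0447), and r was 0.80 without mulberry rats 2 and 4. With C1qc its r was 0.72 (adjusted permutation p = 0.0426), and with C1qb 0.69, which did not pass (adjusted permutation p = 0.0604). Cd14 had r between -0.46 and 0.27 with the other markers, and 0 of its 8 pairs passed (smallest adjusted permutation p = 0.294). Without control rat 3 and mulberry rat 3, chosen after seeing the data, r ran from -0.80 with Cd68 to 0.085 with Lyz2. It was -0.76 for both C1qa and Csf1r and -0.69 for Cd163, so the pooled values depend on those rats. Leaving out the 2 farthest rats of each pair gave 0.28 for Cd68, -0.23 for C1qa, -0.36 for Csf1r and -0.11 for Cd163. On group-centred values r ran from -0.22 with Lyz2 to 0.51 with Aif1, with -0.15 for Cd68 and 0.067 for C1qa. The sign for Cd68 and C1qa thus differed between settings. Lyz2 had r between -0.044 and 0.26, and 0 of its 8 pairs passed (smallest adjusted permutation p = 0.687). The order of the rats differed between the groups: control rat 3, highest in C1q, was the lowest control rat for Lyz2, whereas mulberry rats 4 and 3 were the highest and lowest of their group for both. With 5 rats in each group, no r is given within groups.

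**Figure D3:**
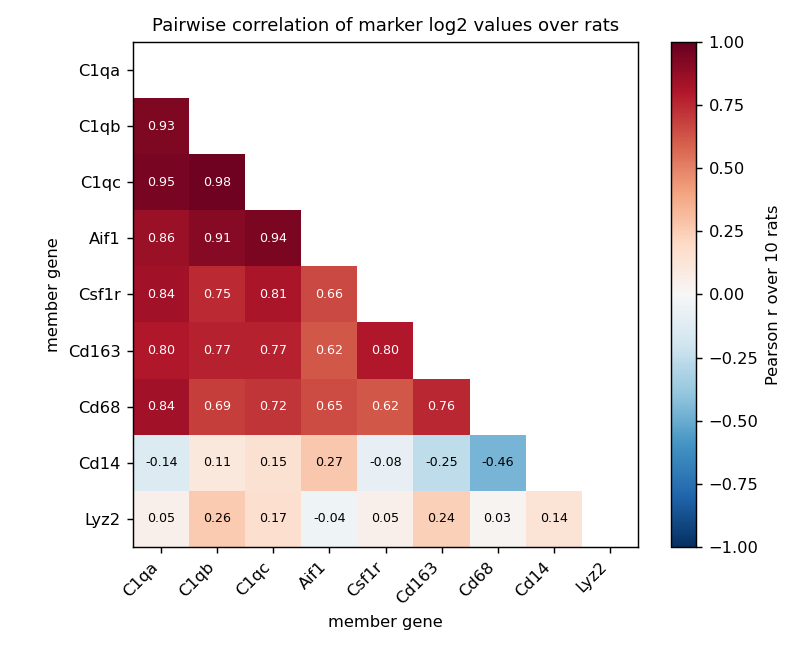
Pearson r over the 10 rats between the log2(intensity + 16) values of each pair of macrophage genes, 36 pairs in all. The 21 pairs that leave out Cd14 and Lyz2 have r between 0.62 and 0.98, while the Cd14 and Lyz2 rows lie between -0.46 and 0.27.

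**Figure D4:**
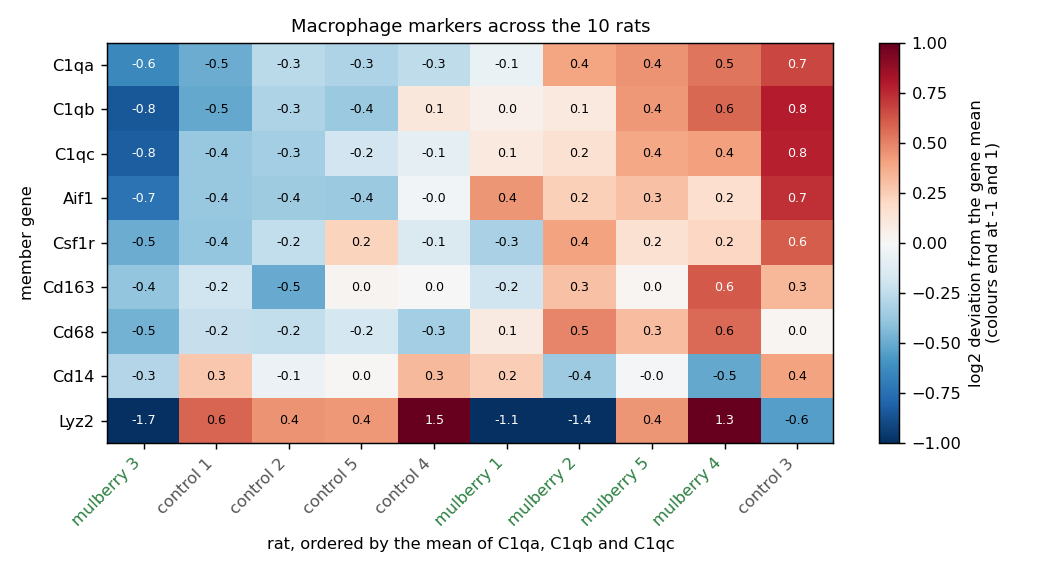
Deviation of each gene from its own mean over the 10 rats, in log2 units, with rats ordered by the mean of the C1q genes. From mulberry rat 3 on the left to control rat 3 on the right, Aif1, Csf1r, Cd163 and Cd68 run broadly with C1q, and Cd14 and Lyz2 do not.

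The mean log2 value of C1qa, C1qb and C1qc was then set against every other gene. It ran from 0.77 below its mean over rats in mulberry rat 3 to 0.74 above it in control rat 3. By a rule of highest Pearson r over the 10 rats, the 5 most similar of 10319 genes were Lgals3 (r = 0.98), Anxa3 (0.97), Ifitm1 (0.97), Clec4f (0.96) and Psmd7 (0.96). Lgals3 encodes the galectin-3 of macrophages and Clec4f a C-type lectin of rodent Kupffer cells, whereas Anxa3 is an annexin, Ifitm1 an interferon-induced membrane protein and Psmd7 a proteasome subunit. Clec4f averaged 3976 ± 1059 in the control group and 4455 ± 1158 in the mulberry group (SD over 5 rats each), and was at 5789.6 in control rat 3 and 2708 in mulberry rat 3. Without these rats the 5 genes had an r between 0.93 and 0.96. They were chosen for their r over all 10 rats, which favoured a high r in most of the same rats.

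Among 48 further Kupffer cell and macrophage genes, 35 were tested, and 15 of them (42.9%) had an r above 0.8 with the C1q mean, against 1.94% of all genes. The median r was 0.70 over the 35 and -0.017 over all genes. Besides Lgals3 and Clec4f, they included Cd5l (r = 0.96), a scavenger protein secreted by tissue macrophages, the folate receptor gene Folr2 (0.94), the protease cathepsin S (Ctss, 0.93) and Adgre1 (0.80), which encodes F4/80. On the other side were Fgr (-0.57), a kinase of myeloid cells, Ptprc (-0.28), the pan-leukocyte CD45, and Itgax (-0.28), the CD11c integrin. Lyz2 had an r above 0.8 with 0 of the 35 genes and 0.194% of all genes (median r over the 35 of 0.098), and Cd14 with 0 and 0.3004% (median r -0.034). Cd68 had it with 3 of the 35 (8.57%) and 0.349% of all genes (median r 0.48), and Cd163 with 1 (2.86%) and 0.998% (median r 0.61). Csf1r had it with 8 (22.9%) and 1.23% (median r 0.64), and Aif1 with 9 (25.7%) and 2.16% (median r 0.64). Apart from Lgals3 and Clec4f, the genes of this list were picked after their values were seen. The r values are descriptions over 10 shared arrays.

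**Figure D5:**
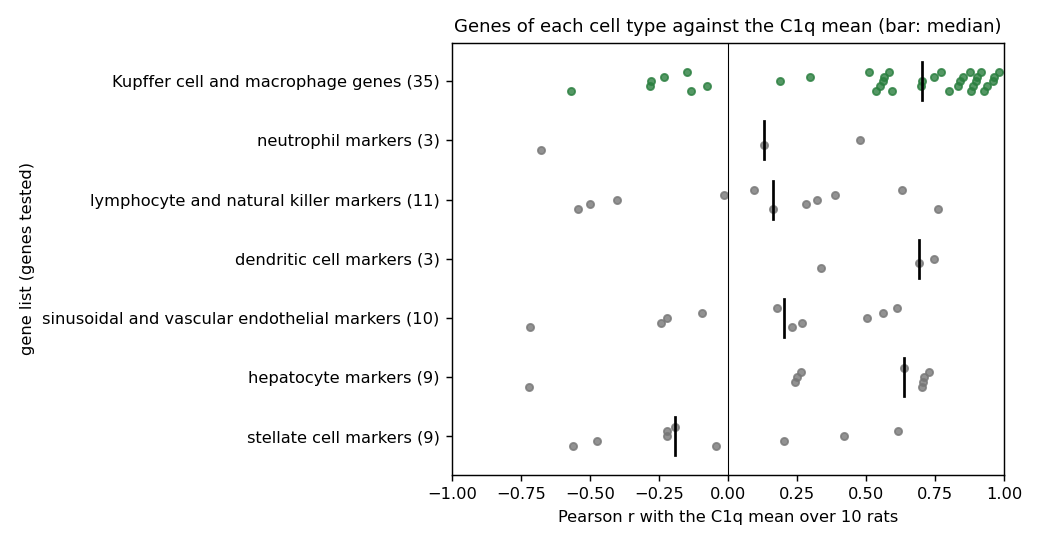
Pearson r over the 10 rats between the C1q mean and each tested gene of the macrophage list and of the lists for other liver cells (points; black bars are medians; numbers in brackets are genes tested). The macrophage list has a median r of 0.70, with 15 of 35 genes above 0.8. The hepatocyte and dendritic cell lists have medians of 0.64 and 0.69, with 0 genes above 0.8. Hepatocyte genes range from -0.72 to 0.73.

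The genes most similar to Cd68 were Gpnmb (r = 0.89) and Fcgr1a (0.87), a lysosomal glycoprotein and an Fc receptor of macrophages, then Fgl2, Ms4a6a and Acyp1 (0.87 each). For Cd14 they were Map2k1 (0.91), Slc27a5 (0.90), a bile acid-CoA ligase of hepatocytes, Snx24 (0.89), Smad4 (0.89) and Slc35c1 (0.88). For Lyz2 they were P4ha2 (0.91), Pagr1 (0.88), Snx12 (0.86), Bsn (0.85) and Sarm1 (0.85). For Cd163 they were Paqr4 (0.95), Azin1 (0.94), Cct6a (0.92), Dhps (0.92) and Sdhaf4 (0.91). For Csf1r they were Rheb (0.94), Cd83 (0.94), Hikeshi (0.93), Plod1 (0.92) and Cct2 (0.92). These lists for Cd68, Cd14, Lyz2, Cd163 and Csf1r were drawn up after the correlations between the markers were seen.

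Other measures moved with the C1q mean as well. The Gapdh log2 ratio (3′ over 5′ probe set), which tracks RNA integrity, had a Pearson r of -0.73 with it over the 10 rats. The Spearman rho was -0.88 (permutation p = 0.019 for r and 0.00165 for rho). Over 3 array measures the adjusted permutation p was 0.057 for r, and that of rho was not adjusted. Without the 2 farthest rats r was -0.55. The Gapdh ratio was -0.011 in control rat 3 and 0.34 in mulberry rat 3, and spanned -0.011 to 0.34 in control and 0.024 to 0.34 in mulberry rats. With its linear part removed, r over the 21 pairs was between 0.25 and 0.95, and between 0.92 and 0.95 for the 3 C1q pairs. The other array measures, median intensity (r = -0.46, permutation p = 0.177) and the beta-actin ratio (r = -0.30, permutation p = 0.406), had weaker correlations. The part of RNA integrity in the shared order of the markers was not tested beyond this.

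Markers of other liver cells were also set against it. All 9 hepatocyte markers tested, of 10 listed, had summed intensities of 217056 to 257179 in control and 216272 to 264855 in mulberry rats, and a median r of 0.64 with the C1q mean. Their r values ran from -0.72 for Hnf4a to 0.73 for Apoa1, named here as the extremes, with 0 of 9 above 0.8. Ahsg (0.068 ± 0.080) and Fgb (0.063 ± 0.072), which encode plasma proteins, had the smallest unadjusted p among the hepatocyte markers. Of the dendritic cell markers 3 of 10 were tested, with sums of 479.8 to 782 and 509.9 to 647 and a median r of 0.69, among them Itgae (0.066 ± 0.12) and Clec10a (-0.095 ± 0.23). Dendritic cell r values ran from 0.34 to 0.74, with 0 above 0.8. The part of hepatocytes and dendritic cells in the shared order was not tested.

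Medians were nearer 0 for endothelial (10 of 12 tested, 0.20), lymphocyte and natural killer (11 of 19, 0.16) and stellate cell markers (9 of 10, -0.19). In these lists 0 genes passed the limma test between the groups, with Emcn at 0.22 ± 0.13, Eng at -0.16 ± 0.11, Nkg7 at 0.24 ± 0.21, Cd3g at 0.24 ± 0.21, Reln at 0.20 ± 0.12 and Col1a1 at -0.32 ± 0.24. Endothelial sums ran from 9591 to 11756 in control and from 10242 to 12022 in mulberry rats. Lymphocyte and natural killer sums ran from 1179.7 to 1513 and from 1354 to 1449, and stellate cell sums from 3696 to 5688 and from 4519.6 to 5676.

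Neutrophil markers were read beside Cd14 and Lyz2, which neutrophils also carry. Of 13 listed, 3 were tested, with summed intensities of 3629.98 to 5752 in control and 4207 to 5829 in mulberry rats. S100a9, an alarmin subunit of neutrophils and monocytes, was measured at 225, 246, 271, 186 and 229 in control rats 1 to 5 and at 125, 156, 98.0, 191 and 92.4 in mulberry rats 1 to 5. Every mulberry rat but rat 4 lay below every control rat. Its log2 difference was -0.77 ± 0.19 (exact permutation p = 0.0159, adjusted limma p = 0.9999), and that of its partner S100a8 was -0.62 ± 0.27 (exact permutation p = 0.0159), whose mulberry mean of 54.4 ± 24.0 (SD, n = 5) lay under the filter level. The third gene, Ceacam1 (0.065 ± 0.15), is also made by hepatocytes and made up most of that sum. The part of neutrophils in the Cd14 and Lyz2 values was not tested.

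Of the 35 further macrophage genes, 0 passed the limma test. Means were higher with mulberry in 29 and lower in 6 (median log2 difference 0.084). Over all genes 51.3% were higher (median 0.0035). Genes of a list share the same arrays, so such counts are not made of independent results. Gpnmb (0.34 ± 0.19) and Cd4 (0.29 ± 0.18), which rat macrophages also carry, had the smallest unadjusted p. Of 15 cytokine and activation genes, 0 passed, with 12 higher and 3 lower means, among them Il1rn (-0.45 ± 0.23), the interleukin-1 receptor antagonist, and Nos2 (0.88 ± 0.48), the inducible nitric oxide synthase. Of 7 scavenger receptor genes other than the markers themselves, 0 passed, with 2 higher and 5 lower means, among them the mannose receptor Mrc1 (0.17 ± 0.14) and Scarb2 (-0.081 ± 0.13).

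The genes that act with C1q passed in 0 of 8 cases. All 8 had higher means with mulberry, against 51.3% of all genes (median log2 difference 0.071, against 0.0035). They share the same arrays, so the 8 are not independent results. C1r (0.0088 ± 0.082) and C1s (0.010 ± 0.061), the proteases that C1q activates, differed little. C4bpa (0.045 ± 0.076), C4bpb (0.13 ± 0.088) and Serping1 (0.11 ± 0.070) encode inhibitors of the classical pathway. Calr (0.16 ± 0.11), C1qbp (0.032 ± 0.10) and Cd93 (0.097 ± 0.16) encode proteins described as C1q-binding. Of these, C1qbp had an r of 0.86 with the C1q mean and the others between 0.29 and 0.63.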

How the data were processed

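RNA from 10 livers (5 control and 5 mulberry rats) was measured on 1 single-colour array each. The authors deposited linear intensity values for 31099 probe sets. MAS5 and affy are named per the submitters' processing notes, and their versions are not given in the sources used here. Tested on the table itself, the mean after trimming 2% of values at each end came to 500 on each of the arrays, with 1 as the lowest intensity. Such scaling assumes that arrays share an overall level.

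The 57 control probe sets were left out. Values were taken as log2(intensity + 16), which understates changes of dim probe sets, and probe sets with a mean above the 40th percentile (intensity 61.1) were kept, 18625 of 31042. Groups were compared with limma 3.58.1 in R 4.3.3 (lmFit and eBayes with a variance trend, two-sided), p-values adjusted by Benjamini-Hochberg across the 18625 probe sets, threshold 0.05. A two-sided exact permutation test over the 252 assignments of rats, whose smallest p is 0.00794, stands beside it. Correlations used 100000 permutations, two-sided, adjusted over the 36 pairs. The number of arrays limits the precision. The code was tested on simulated data.

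The platform annotation gave 1 symbol to 20826 probe sets, several to 436 and none to 9780, and 20758 of the first were matched to RefSeq by gene ID. Named genes are all markers, the members of 4 partner lists (CSF1R ligands, lipopolysaccharide sensing, C1q, heme), S100a8, S100a9, the 2 tested genes of each other list with the smallest unadjusted p, and the 5 most similar to the C1q mean. Others were picked after their values were seen, as stated beside them. Markers and lists were chosen with earlier results of these data known. Alternatives covered the pseudocount, filter, variance trend, array weights, median shift, quantile normalization, threshold, probe set summary, replicate block and leaving out each rat. Separate rats are the replicates, per the labels.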

Additional observations from a re-analysis of the deposited data

Results flagged for a closer look

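In 13 of 116 groups of 5 rats examined, 1 rat lay far from the other 4 by Dixon's criterion, and 5 of these were among the 20 groups of macrophage probe sets. Chance gives about 1 in 20 for independent groups, but these share arrays, and Anxa3 and Psmd7 were chosen for their likeness to the C1q mean, so the same rats are counted more than once. Control rat 3 was high for C1qa at 5359 (other control rats 2379 to 2809), C1qc at 2397 (1063 to 1308), Hp at 41739.6 (32545 to 34139), Ahsg at 36964 (31503 to 32936), Anxa3 at 1483 (726 to 873) and Psmd7 at 3459 (2812 to 2947). Mulberry rat 3 was low for C1qc at 778 (other mulberry rats 1489 to 1849.8), the brighter Aif1 probe set at 313 (600.4 to 729) and C1qbp at 3621 (4257 to 4397). Elsewhere, the dim Aif1 probe set was at 135 in control rat 5 (73.6 to 85.8), Hmox2 at 1701 in control rat 1 (1971 to 2079), Nkg7 at 71.6 in mulberry rat 4 (107 to 109.8) and Col1a1 at 36.6 in mulberry rat 2 (95.04 to 110.5).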

How the results depend on the processing

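The count of limma calls was 0 over all probe sets and 0 among the macrophage probe sets under every alternative run, a threshold of 0.1 included. Of 189 alternative values of the 10 log2 differences, 181 kept their sign and 8 turned. Csf1r was at 0.046 with array weights, and from -0.12 to 0.13 when single rats were left out. The ranges without single rats were -0.00015 to 0.25 for Cd163, -0.0088 to 0.35 for C1qb and -0.00089 to 0.31 for C1qc, with the lowest value of each lacking mulberry rat 4. The count of genes with a higher mean was 6, and 3 to 7 without single rats. Correlated pairs numbered 16, with 18 on group-centred values, whose p tends to be too small. They numbered 4 without the 2 farthest rats, 5 to 17 without single rats and 4 without control rat 3 and mulberry rat 3. The last 2 of these settings were chosen after seeing the data, as was removal of the Gapdh ratio. The runs without single rats were all of the same size, and 5 pairs passed without mulberry rat 3 against 11 to 17 without each other rat. The counts of 4 came from fewer rats still. The cause of the smaller counts was not tested further.

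Rats of the 2 groups share only a number: deviations of same-numbered rats correlated between -0.33 and 0.096, and 2 of 10 rats correlated best with their own number. With the replicate block, limma made 0 calls and 6 genes had a higher mean.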
